A study of Arabidopsis thaliana with 9 samples.

Results

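Expansins and xyloglucan endotransglucosylase/hydrolases (XTH) are 2 families of cell-wall loosening proteins, and their transcript levels were compared across ssrp1-2, spt16-1 and Col-0 wild-type seedlings of Arabidopsis thaliana. Members were the genes whose annotated symbol starts with EXPA, EXPB, EXLA, EXLB or XTH followed by a number, each read from a probe set annotated with exactly 1 gene. This gave 31 genes of the 16550 genes that had such a probe set: 13 alpha-expansins (EXPA), 5 beta-expansins (EXPB), 3 expansin-like A genes (EXLA), 1 expansin-like B gene (EXLB) and 9 XTH genes. They came from 32 probe sets, because EXPA20 had 2, of which the one with the higher mean over the 9 arrays was kept. RefSeq lists 64 genes under such symbols, so 33 of them, 21 of these XTH genes, were not analysed here.

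The ssrp1-2 group carried the ssrp1-2 allele, the spt16-1 group the spt16-1 allele, and the wild-type group neither, all in the Col-0 ecotype, with 3 single-colour Affymetrix arrays each. SSRP1 and SPT16 together form FACT, a histone chaperone that helps RNA polymerase II pass through chromatin, and the design sets plants with either affected subunit against wild type. Every array carried RNA from 100 mg of pooled aerial parts, harvested after 10 days on plates with 0.5 strength MS medium and without a further treatment. The labels give the mutants by allele name only. They number the 3 pools of a genotype as biological replicates without naming sowings or plates, and the p-values cover no more than the spread among those pools. SSRP1 and SPT16 had no named probe set, and their levels were not analysed here.

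Plant cells enlarge when their wall yields to turgor. Expansins loosen the contacts between cellulose and other wall polysaccharides without cutting them, best at acid pH, while XTH enzymes cut xyloglucan chains and rejoin them to other chains or to water. Alpha- and beta-expansins are the classes with known wall-loosening activity, and the expansin-like A and B proteins share their fold without an established activity. In shoots many of these genes follow growth, hormones, light and mechanical stimulation.

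Levels are the authors' RMA values on the log2 scale, on which a difference of 1 is a 2-fold change, and ± gives the SD over 3 arrays. Levels of different genes are not set against each other, since probe sets differ in their response. A gene passed when its limma p-value, adjusted by the Benjamini-Hochberg method over all 28501 probe sets of a comparison, was under 0.05. Array medians lay between 4.95 and 4.98, and arrays correlated at 0.992 to 0.994 within a genotype and at 0.989 to 0.992 between genotypes. Low values have no detection call here, so the boundary of the lowest 25% of all probe sets, 3.13, serves as a mark of doubt: EXPA21, EXLA3, XTH20, XTH21 and XTH29 had means below it in all 3 genotypes, and 25 of the 31 members had means above it in all 3. The 10 leaf markers listed for a tissue check had no named probe set. Of 9 nuclear photosynthesis genes looked up in their place after this was seen, 8 had a mean over the 9 arrays between 8.31 and 12.37, and LHCB4.3 had 3.66.

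In ssrp1-2 against wild type, 6 of the 31 genes passed: EXLA1, XTH18 and XTH33 rose, and EXPA15, EXPB1 and EXPB3 fell. Over all probe sets 2.58% passed in this comparison, 1.74% higher and 0.839% lower. The 3 genes that rose were an expansin-like gene and 2 XTH genes, and the 3 that fell were an alpha- and 2 beta-expansins. In spt16-1 against wild type, 0 rose by limma (2 at an unadjusted p under 0.05) and EXPB1 and EXPB3 fell, beside a background of 2.02% of all probe sets, 1.21% higher and 0.807% lower. At an unadjusted limma p under 0.05, 1812 of the 28501 probe sets were higher and 1787 lower in that comparison. These counts were 2289 and 1819 in ssrp1-2 against wild type, and 1854 and 1573 between the mutants. Unadjusted counts given here and below are to be read beside them. The members were proposed with earlier results of these data known, so the shares and counts describe the group and support no statement about it. In bulk samples such as these, fewer cells of a type and less RNA per cell cannot be told apart.

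**Figure D1:**
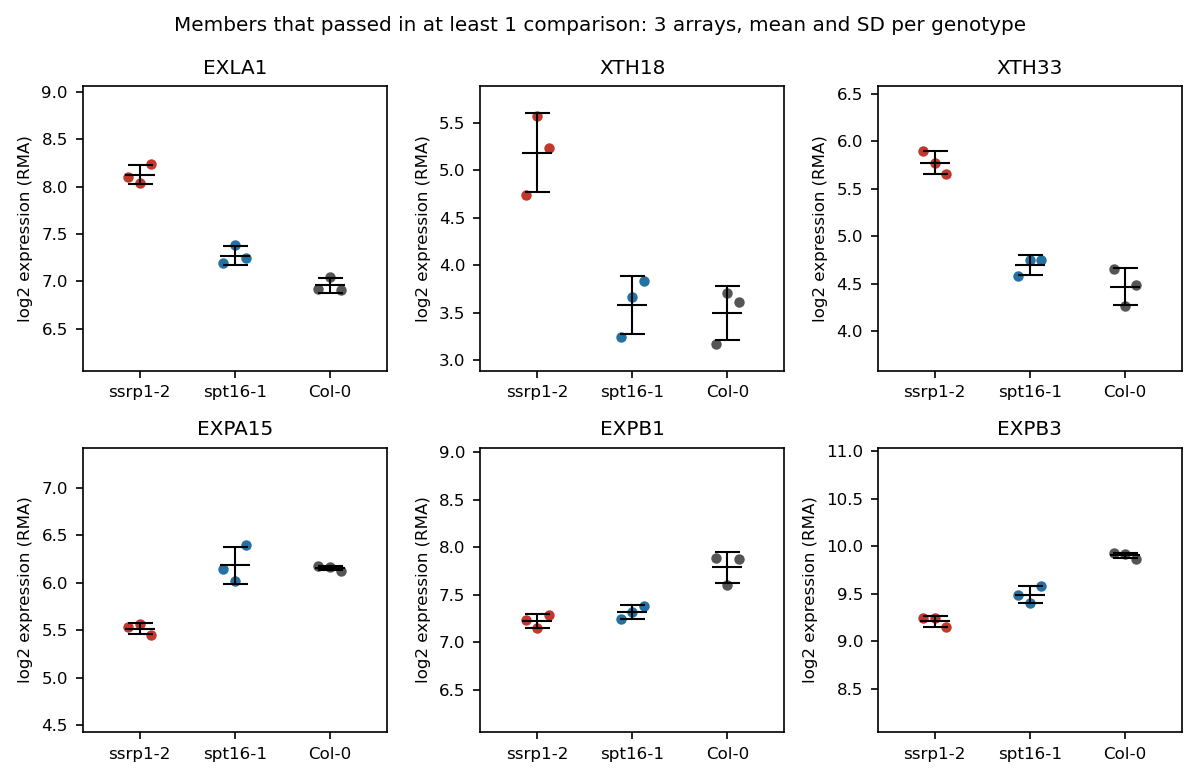
Log2 expression (RMA) of the 6 members that passed in at least 1 comparison, with 3 arrays per genotype as points and the mean ± SD as bars; every panel spans the same 3 log2 units. The ssrp1-2 arrays of EXLA1, XTH18 and XTH33 lie above all other arrays, those of EXPA15 and EXPB3 below all other arrays, and for EXPB1 both mutants lie below wild type.

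EXLA1, an expansin-like A gene, was measured at 8.10, 8.04 and 8.23 in ssrp1-2, at 7.20, 7.38 and 7.24 in spt16-1, and at 6.92, 7.05 and 6.91 in wild type. The genotypes formed 3 separate steps with no overlap between arrays. In ssrp1-2 EXLA1 rose 2.24-fold (log2 fold change 1.17, 95% interval 0.98 to 1.35, limma adjusted p = 0.000228), and it passed under each of the 19 alternative settings run for it. In spt16-1 the log2 fold change was 0.31 (95% interval 0.13 to 0.50), with a limma adjusted p of 0.119. Of the 19 alternatives, the spt16-1 value passed only with an intensity trend (adjusted p = 0.0412).

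XTH18 stood at 4.75, 5.57 and 5.24 in ssrp1-2, at 3.24, 3.66 and 3.84 in spt16-1, and at 3.18, 3.71 and 3.61 in wild type. Every ssrp1-2 array was above all arrays of the other genotypes, which overlapped each other. The rise in ssrp1-2 was 3.22-fold (log2 fold change 1.69, 95% interval 1.15 to 2.22, limma adjusted p = 0.00739), and its call was lost in the unmoderated test (adjusted p = 0.0516). In spt16-1 the log2 fold change was 0.08 with a 95% interval of -0.46 to 0.62, so a change within those limits was not resolved. The XTH18 means in spt16-1 and wild type, 3.58 and 3.50, lie close to the low boundary of 3.13. The sizes of the XTH18 differences, here and between the mutants below, are therefore uncertain.

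XTH33, an XTH protein found at the cell surface, had 5.89, 5.77 and 5.65 in ssrp1-2, then 4.58, 4.75 and 4.75 in spt16-1, and 4.65, 4.27 and 4.49 in wild type. The ssrp1-2 arrays again stood apart, and the spt16-1 and wild-type arrays overlapped. XTH33 rose 2.47-fold in ssrp1-2 (95% interval of the log2 fold change 1.05 to 1.56, limma adjusted p = 0.000614), with adjusted p between 1.51e-04 and 0.00876 over the 19 alternatives. In spt16-1 its log2 fold change was 0.23 (95% interval -0.03 to 0.48, limma adjusted p = 0.463).

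EXPA15, an alpha-expansin, was measured at 5.54, 5.57 and 5.45 in ssrp1-2, at 6.14, 6.02 and 6.40 in spt16-1, and at 6.18, 6.17 and 6.13 in wild type. It was low on all ssrp1-2 arrays, and the spt16-1 arrays lay on both sides of wild type. In ssrp1-2 the log2 fold change was -0.64 (95% interval -0.86 to -0.42, limma adjusted p = 0.0113), a level 1.56 times lower than in wild type. EXPA15 kept its call under all 19 alternatives, those without each array included, with adjusted p of up to 0.0494. In spt16-1 its log2 fold change was 0.03 (95% interval -0.19 to 0.25).

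EXPB3, a beta-expansin, had 9.24, 9.24 and 9.15 in ssrp1-2, then 9.49, 9.41 and 9.58 in spt16-1, and 9.93, 9.92 and 9.87 in wild type. Arrays of the 3 genotypes did not overlap, and spt16-1 lay between the other two. EXPB3 fell in ssrp1-2 (log2 fold change -0.70, 95% interval -0.85 to -0.54, limma adjusted p = 0.00131) and in spt16-1 (-0.41, 95% interval -0.57 to -0.25, limma adjusted p = 0.0212). The ssrp1-2 call passed under all 19 alternatives. The spt16-1 call was lost without spt16-1 replicate 1 (adjusted p = 0.0730) or 2 (0.0813), without wild-type replicate 1 (0.0790), 2 (0.0775) or 3 (0.0606), with a replicate block (0.0768) and in the fit of the 2 genotypes alone (0.0667).

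EXPB1, the other beta-expansin that passed, was measured at 7.23, 7.15 and 7.29 in ssrp1-2, at 7.24, 7.32 and 7.38 in spt16-1, and at 7.89, 7.60 and 7.88 in wild type. All 6 mutant arrays were below the 3 wild-type arrays, and the mutants overlapped each other. The log2 fold change was -0.57 in ssrp1-2 (95% interval -0.78 to -0.36, limma adjusted p = 0.0161) and -0.48 in spt16-1 (-0.69 to -0.26, limma adjusted p = 0.0399). The ssrp1-2 call was lost without ssrp1-2 replicate 1 (adjusted p = 0.0520) or 2 (0.0589), without wild-type replicate 1 (0.0595) or 3 (0.0659), and in the fit of the 2 genotypes alone (0.0636). The spt16-1 call was lost in 11 of 19 alternatives, among them the replicate block (adjusted p = 0.0632), a fit of spt16-1 and wild type alone (0.108) and the unmoderated test (0.0832). Of the 9 settings without an array it held in 1, that without wild-type replicate 2 (0.0202), and the others gave up to 0.134. EXPB1 and EXPB3 passed lower in both mutants and 0 members passed higher in both, beside 0.389% lower and 0.575% higher over all probe sets. Both comparisons share the wild-type arrays.

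**Figure D2:**
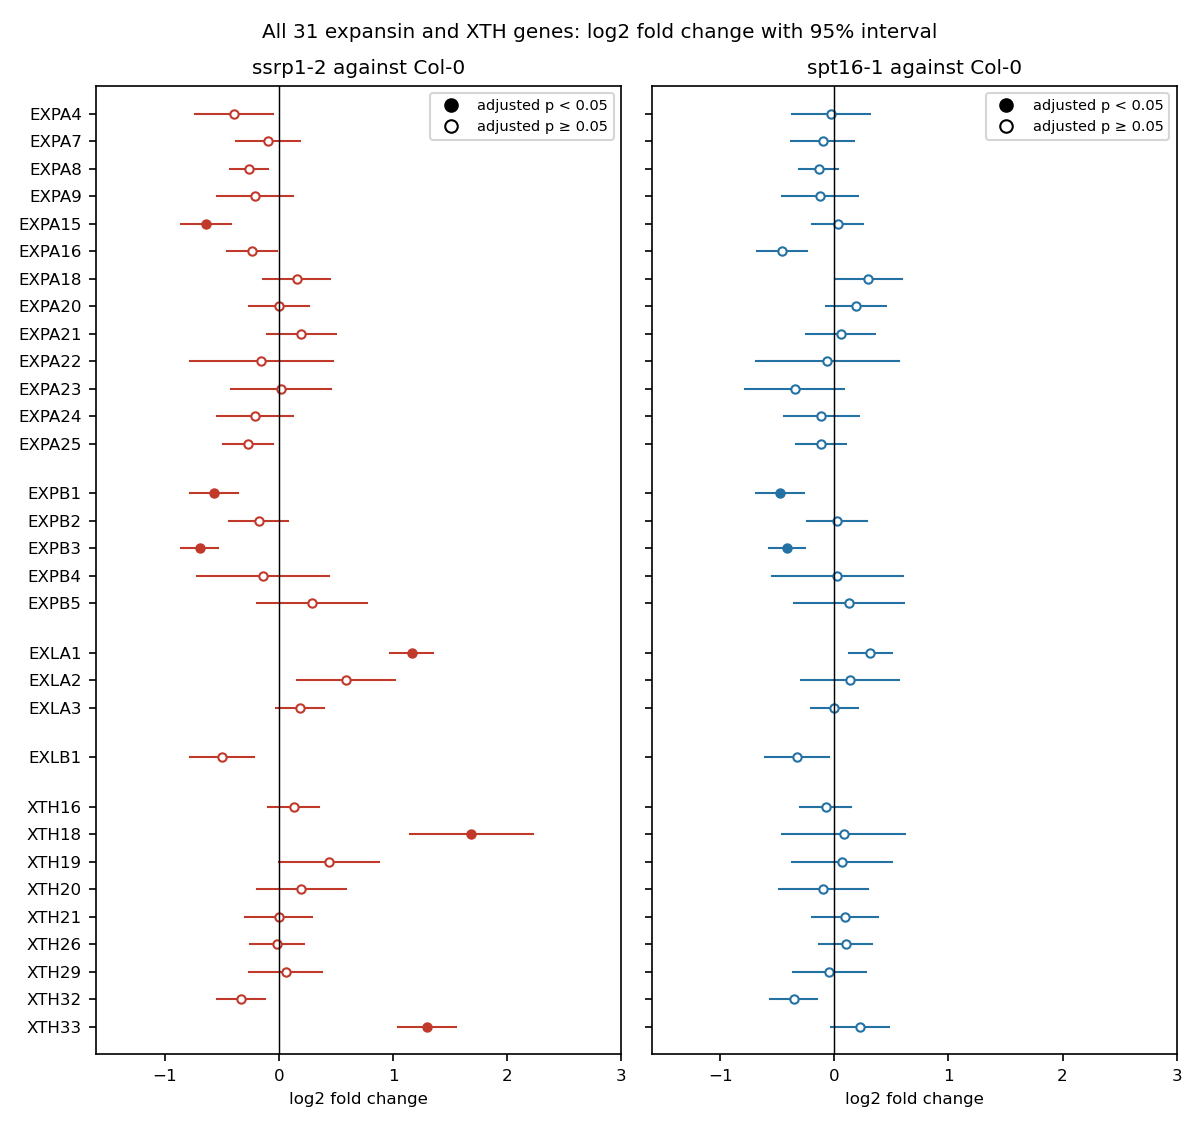
Log2 fold change against wild type (x axis) of all 31 members (y axis, grouped by subfamily), for ssrp1-2 on the left and spt16-1 on the right; lines are 95% intervals and filled points have an adjusted p under 0.05. In ssrp1-2, 3 filled points lie right of 0 and 3 left of it, and in spt16-1 the 2 filled points, EXPB1 and EXPB3, lie left of 0.

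Among the 13 alpha-expansins, 10 had a negative log2 fold change in ssrp1-2, with a median of -0.21 (-0.27 to -0.13 without 1 array) and a range of -0.64 to 0.20. EXPA15 passed, and the other 12 did not. Over all probe sets the median was -0.00041. The arrays of 5 alpha-expansins lay wholly below wild type in ssrp1-2 and those of 0 lay wholly above; over all probe sets 8.18% lay below and 9.37% above. EXPA4, 1 of these 5, had 6.46, 6.72 and 7.01 in ssrp1-2, then 7.03, 6.94 and 7.31 in spt16-1, and 7.26, 7.06 and 7.03 in wild type. Its log2 fold change in ssrp1-2 was -0.39 (limma adjusted p = 0.274), and in spt16-1 -0.03.

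In spt16-1 the alpha-expansin median was -0.10 (-0.13 to -0.03 without 1 array), with 9 of 13 values negative and 0 genes passing by limma (2 at an unadjusted p under 0.05, EXPA16 lower and EXPA18 higher). EXPA16 came closest to the threshold. It was measured at 4.93, 4.97 and 4.76 in ssrp1-2, at 4.59, 4.83 and 4.57 in spt16-1, and at 5.14, 5.03 and 5.18 in wild type, so that both mutants lay below wild type without overlap. Its log2 fold change in spt16-1 was -0.46 (limma adjusted p = 0.0534). EXPA16 passed under 4 of 19 alternatives, including array weights and a filter on low values, with adjusted p between 0.0339 and 0.171. EXPA23 had 4.44, 3.71 and 4.31 in ssrp1-2, then 3.75, 3.61 and 4.02 in spt16-1, and 4.16, 3.97 and 4.29 in wild type. Arrays of all 3 genotypes overlapped, and the log2 fold change of -0.35 in spt16-1, next in size to that of EXPA16, had a limma adjusted p of 0.519.

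EXPA8, a gene with little spread, had 8.60 ± 0.08 in ssrp1-2, 8.72 ± 0.06 in spt16-1 and 8.86 ± 0.07 in wild type (SD, n = 3 each). Its arrays did not overlap between any pair of genotypes, but its log2 fold changes of -0.26 and -0.14 had limma adjusted p of 0.129 and 0.504. The ssrp1-2 value passed only with an intensity trend (adjusted p = 0.0322). EXPA25 was also below wild type without overlap in both mutants (-0.27 and -0.12, adjusted p by limma of 0.239 and 0.691). EXPA7 and EXPA18, expansins of root hairs, stayed near the low boundary of 3.13, with means between 3.21 and 3.51 in the 3 genotypes, and neither passed in any comparison. PYK10, the third measured root marker, had 10.84 ± 0.09 in ssrp1-2, 11.31 ± 0.25 in spt16-1 and 11.21 ± 0.08 in wild type (SD, n = 3 each). Its ssrp1-2 arrays lay below all others, but no comparison passed, and the part of root RNA in the ssrp1-2 values was not tested.

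The alpha-expansins EXPA21, EXPA22, EXPA23, EXPA24 and EXPA25 lie beside each other in the RefSeq gene order, in 1 run with EXP26, a family gene whose symbol kept it out of the member list. Their log2 fold changes ran from -0.27 for EXPA25 to 0.20 for EXPA21 in ssrp1-2. In spt16-1 they ran from -0.35 for EXPA23 to 0.05 for EXPA21, and none passed in either mutant. EXPA21, at the positive end in both, had means below 3.13 in all 3 genotypes. EXPA22, EXPA23, EXPA24 and EXPA25 had -0.16, 0.02, -0.21 and -0.27 in ssrp1-2 and -0.06, -0.35, -0.11 and -0.12 in spt16-1. Such near copies can share probes, so separate values within the run are uncertain. The 2 probe sets of EXPA20 gave log2 fold changes of -0.0010 and 0.05 in ssrp1-2 and of 0.19 and 0.28 in spt16-1, and neither passed.

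Of the 5 beta-expansins, EXPB1 and EXPB3 are described above, and EXPB2, EXPB4 and EXPB5 had log2 fold changes of -0.18, -0.14 and 0.29 in ssrp1-2 and of 0.02, 0.03 and 0.13 in spt16-1. The subfamily median was -0.18 in ssrp1-2, moving to -0.46 without ssrp1-2 replicate 3, and 0.02 in spt16-1, with -0.11 without spt16-1 replicate 2 and -0.06 without wild-type replicate 2. EXPB2 and EXPB4 had means between 3.16 and 3.63, close to the low boundary. EXPB4 had 2.79, 2.90 and 3.80 in ssrp1-2, and this spread left its 95% interval at -0.71 to 0.44.

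All 3 expansin-like A genes had a positive log2 fold change in ssrp1-2, with a median of 0.59. In spt16-1 the median was 0.14, and 0.02 to 0.34 without 1 array, with 0 genes passing by limma and 1 at an unadjusted p under 0.05. EXLA2 was measured at 5.68, 5.35 and 5.86 in ssrp1-2, at 4.76, 5.40 and 5.37 in spt16-1, and at 5.12, 4.89 and 5.12 in wild type. The ssrp1-2 arrays lay above wild type without overlap, but they overlapped spt16-1, and the log2 fold change of 0.59 in ssrp1-2 did not pass (95% interval 0.16 to 1.02, limma adjusted p = 0.191). EXLA3, the RefSeq neighbour of EXLA1, had 2.51 ± 0.16 in ssrp1-2, 2.32 ± 0.07 in spt16-1 and 2.32 ± 0.07 in wild type (SD, n = 3 each), below 3.13 throughout. Its log2 fold change in ssrp1-2 was 0.19 (limma adjusted p = 0.412), and at this level a lack of change was not shown.

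EXLB1, the single measured expansin-like B gene, had the opposite sign to EXLA1. It was measured at 5.74, 5.86 and 5.37 in ssrp1-2, at 5.84, 5.82 and 5.83 in spt16-1, and at 6.15, 6.29 and 6.04 in wild type. Both mutants lay below wild type without overlap, yet the log2 fold changes of -0.50 in ssrp1-2 and -0.33 in spt16-1 did not pass (limma adjusted p = 0.0848 and 0.307). With an intensity trend the ssrp1-2 value passed (adjusted p = 0.0459).

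Among the 9 XTH genes the median log2 fold change was 0.13 in ssrp1-2 (0.06 to 0.19 without 1 array), with 2 genes passing higher. In spt16-1 it was 0.07, a value whose sign rested on single arrays: it was -0.03 without spt16-1 replicate 1, -0.02 without spt16-1 replicate 2 and -0.07 without wild-type replicate 1. In spt16-1, 0 XTH genes passed by limma and 1, XTH32, had an unadjusted p under 0.05. XTH19, the RefSeq neighbour of XTH18, had 3.37, 2.83 and 3.33 in ssrp1-2, then 2.99, 2.55 and 2.86 in spt16-1, and 2.46, 3.02 and 2.72 in wild type. The arrays overlapped, and the log2 fold change of 0.44 in ssrp1-2 did not pass (95% interval 0.01 to 0.88, limma adjusted p = 0.340). The means of XTH19 in spt16-1 and wild type, 2.80 and 2.73, lie below 3.13, so the size of that value is uncertain. As near copies these neighbours may share probes, which leaves the split of signal between them uncertain.

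XTH32 belongs to an XTH group that includes enzymes able to hydrolyse xyloglucan, and its values ran against those of XTH18 and XTH33. It had 7.15, 6.90 and 6.95 in ssrp1-2, then 7.10, 6.87 and 6.94 in spt16-1, and 7.31, 7.40 and 7.28 in wild type. All mutant arrays lay below wild type, and the mutants overlapped almost fully. The log2 fold changes of -0.33 and -0.36 did not pass (limma adjusted p = 0.124 and 0.111). The spt16-1 value passed only with an intensity trend (adjusted p = 0.0429). XTH16 had a mean between 6.20 and 6.41 in the 3 genotypes, and XTH26, an XTH of root hairs, between 4.07 and 4.18. Of the low XTH genes, XTH20, XTH21 and XTH29 had log2 fold changes of 0.20, -0.0028 and 0.06 in ssrp1-2.

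Across all 31 members the median log2 fold change was -0.02 in ssrp1-2 and -0.03 in spt16-1, beside -0.00041 and -0.0054 over all probe sets. Of the members 18 had a negative value in ssrp1-2 and 16 in spt16-1. In ssrp1-2 the arrays of 13 members did not overlap wild type, 4 above it and 9 below, and in spt16-1 those of 8 members, 1 above and 7 below. Over all probe sets 17.5% did not overlap in ssrp1-2 and 16.9% in spt16-1 (8.53% above and 8.36% below). The members that did not pass had 95% intervals of 0.17 to 0.63 on either side of the estimate in both comparisons. The median was 0.29, so changes under about that size were not resolved. Larger ones could also fail to pass, since these intervals, unlike the calls, are not adjusted over all probe sets. The intervals excluded 0 for 8 of the 25 members that did not pass in ssrp1-2 and for 5 of 29 in spt16-1.

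The direct test of ssrp1-2 against spt16-1 called 4 members, of which EXLA1, XTH18 and XTH33 were higher and EXPA15 was lower in ssrp1-2. The background was 0.835% of all probe sets, 0.519% higher and 0.316% lower. The arrays of 6 members did not overlap between the mutants, the 3 higher ones and, on the lower side, EXPA8, EXPA15 and EXPB3; over all probe sets 15.4% did not overlap, 8.27% higher and 7.16% lower in ssrp1-2. EXLA1 differed by 0.85 on the log2 scale (limma adjusted p = 0.00366) and XTH33 by 1.08 (adjusted p = 0.00444), and both passed under all 19 alternatives. XTH18 differed by 1.60 (limma adjusted p = 0.0227) and EXPA15 by -0.67 (adjusted p = 0.0218). Their calls were less stable. That of XTH18 was lost in the unmoderated test (adjusted p = 0.104), in the fit of the 2 genotypes alone (0.0880), without ssrp1-2 replicate 2 (0.0696) or 3 (0.0895), and without spt16-1 replicate 1 (0.0842), 2 (0.0749) or 3 (0.0580). That of EXPA15 was lost without ssrp1-2 replicate 1 (adjusted p = 0.0709), 2 (0.0694) or 3 (0.0892), without spt16-1 replicate 1 (0.0792), with the replicate block (0.0758), in the unmoderated test (0.0713) and in the fit of the 2 genotypes alone (0.102).

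**Figure D3:**
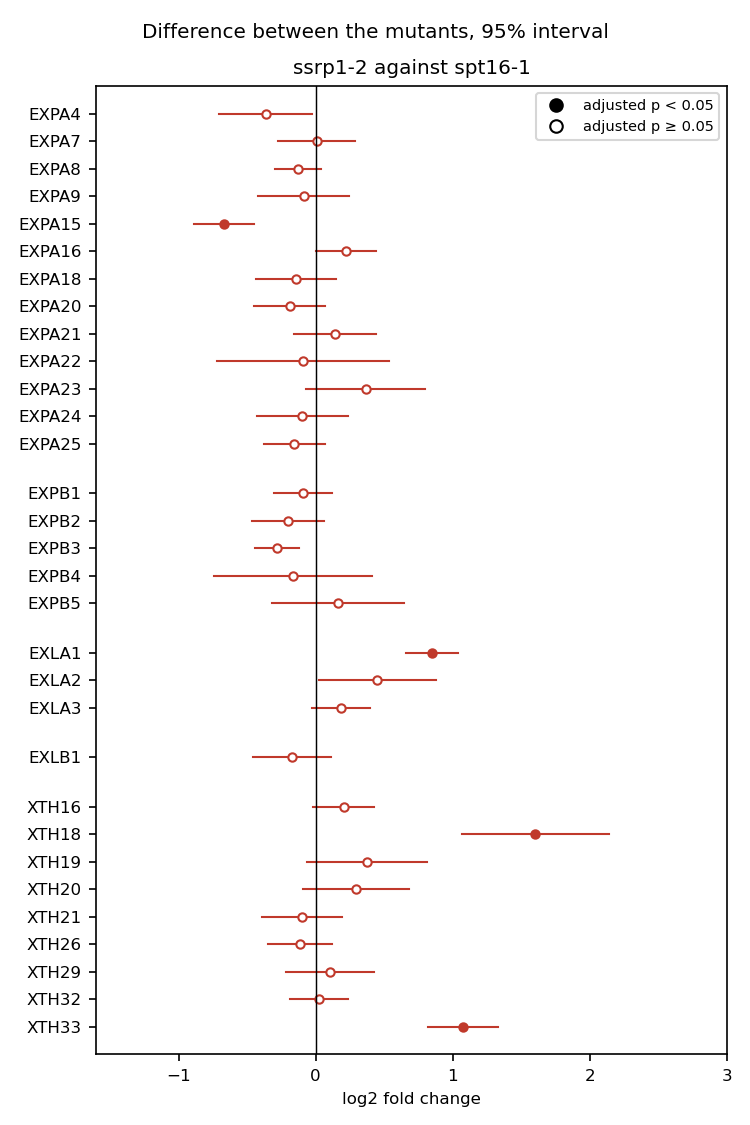
Log2 fold change of ssrp1-2 against spt16-1 (x axis) of all 31 members (y axis, grouped by subfamily), with 95% intervals; filled points have an adjusted p under 0.05. EXLA1, XTH18 and XTH33 lie right of 0 and EXPA15 left of it.

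The beta-expansins that fell in both mutants were not called different between them. EXPB1 differed by -0.09 (95% interval -0.30 to 0.12, limma adjusted p = 0.748). EXPB3 differed by -0.28, with ssrp1-2 arrays wholly below those of spt16-1 (95% interval -0.44 to -0.12, limma adjusted p = 0.141), and it passed with an intensity trend (adjusted p = 0.0241). Subfamily medians of the direct comparison were -0.10 for EXPA (-0.16 to -0.01 without 1 array), -0.16 for EXPB (-0.25 to -0.05), 0.45 for EXLA (0.24 to 0.59) and 0.21 for XTH (0.12 to 0.24), and EXLB1 had -0.17. Over all probe sets the median was 0.0067.

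**Figure D4:**
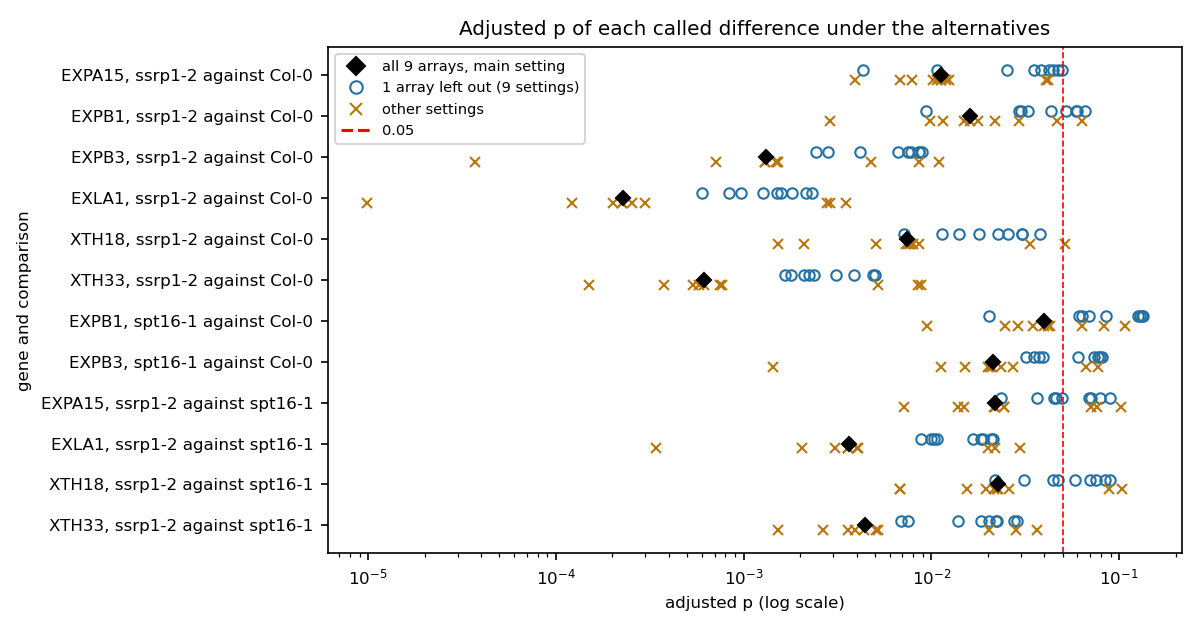
Adjusted p (x axis, log scale) of each of the 12 called differences (y axis) with all arrays, with 1 of the 9 arrays left out, and under the other settings; the dashed line is 0.05. All points of EXLA1, XTH33, EXPB3 and EXPA15 in ssrp1-2 against wild type lie left of the line, while EXPB1 in spt16-1 has points on both sides.

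RefSeq gives 3 further measured genes as relatives under other symbols, and they were looked up after the rule for members was applied. EXGT-A3, also named XTH27, was measured at 8.98, 9.02 and 9.03 in ssrp1-2, at 8.54, 8.47 and 8.43 in spt16-1, and at 8.71, 8.78 and 8.71 in wild type. The mutants lay on opposite sides of wild type, without overlap. Its log2 fold changes against wild type, 0.27 in ssrp1-2 and -0.26 in spt16-1, did not pass (limma adjusted p = 0.0678 and 0.0955), but the direct difference of 0.53 did (adjusted p = 0.00853), under all 19 alternatives. EXP26 and AT4G30380, which has the synonym EXLB2, passed in no comparison.

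Other wall and growth genes were read from 11 lists, 10 of which had a named probe set, though 4 held a single gene. Of 9 cellulose synthase-like genes, 0 passed in any comparison by limma. At an unadjusted p under 0.05 there were 4 in ssrp1-2 and 2 in spt16-1 against wild type, and 1 between the mutants. CSLC04, a glucan synthase for xyloglucan, had 0.34 in ssrp1-2 (limma adjusted p = 0.0918) and 0.08 in spt16-1. ATCSLC08, CSLB03 and CSLC5, named by the same rule, had negative values in both mutants. In that order these were -0.21, -0.34 and -0.37 in ssrp1-2 and -0.30, -0.58 and -0.29 in spt16-1. Of 19 endoglucanases, 13 had a negative log2 fold change in ssrp1-2 (median -0.12) and 16 in spt16-1 (median -0.10). By limma 0 passed in ssrp1-2 (5 at an unadjusted p under 0.05) and 1 in spt16-1. At an unadjusted p under 0.05, 1 was higher and 2 were lower in spt16-1. GH9A3, also known as KOR3, had 3.99, 3.85 and 3.88 in ssrp1-2, then 4.30, 4.70 and 4.14 in spt16-1, and 3.34, 3.36 and 3.82 in wild type. Its spt16-1 arrays lay above all others, and GH9A3 rose in spt16-1 (log2 fold change 0.87, limma adjusted p = 0.0364). That call was lost in 10 of 19 alternatives, among them the settings without any ssrp1-2 array, spt16-1 replicate 1 or 2 or wild-type replicate 1 or 2, with adjusted p of up to 0.128. GH9C2 had -0.45 in ssrp1-2 with a limma adjusted p of 0.0502.

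FER, which encodes the receptor kinase FERONIA that senses the state of the wall, had 9.24, 9.20 and 9.22 in ssrp1-2, then 9.03, 9.01 and 9.04 in spt16-1, and 8.79, 8.96 and 8.82 in wild type. The genotypes did not overlap. FER rose in ssrp1-2 (log2 fold change 0.36, limma adjusted p = 0.0256), and this was lost in 7 of 19 alternatives, among them the replicate block and the settings without any ssrp1-2 array or wild-type replicate 1 or 3, with adjusted p of up to 0.0931. The other 3 measured receptors, THE1, ANX1 and ANX2, had 0.34, -0.37 and 0.09 in ssrp1-2 and did not pass; ANX1 and ANX2 had means below 3.13 in all 3 genotypes.

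CML38, a calmodulin-like gene and the single measured gene of the touch list, had 4.96, 4.50 and 4.69 in ssrp1-2, then 3.17, 3.73 and 4.18 in spt16-1, and 3.33, 2.95 and 2.80 in wild type. Like XTH18 it was above all other arrays in ssrp1-2. Its log2 fold change was 1.69 in ssrp1-2 (limma adjusted p = 0.00939), lost in the unmoderated test (0.0602), and 0.67 in spt16-1 (adjusted p = 0.295), where its arrays overlapped wild type. The wild-type mean of CML38, 3.03, lies below 3.13, which leaves the size of both differences in doubt. TCH4, an XTH known for induction by touch, was not analysed here.

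All 9 measured auxin and brassinosteroid growth genes, 8 of them regulators of auxin response of the IAA family and the other the light-growth regulator PIF7, had negative log2 fold changes in ssrp1-2, from -0.31 to -0.12, and 8 of 9 in spt16-1. IAA15, IAA20, IAA30 and IAA31 had means below 3.13 in all 3 genotypes and IAA33 in both mutants, so their signs carry little. By limma 0 passed in any comparison, and 1 in ssrp1-2 and 2 in spt16-1 had an unadjusted p under 0.05 against wild type. For COB, PRX52, and the pectin genes ADPG1, PME61 and PMEPCRF, log2 fold changes against wild type lay between -0.22 and 0.22 in both mutants, and none passed. At an unadjusted p under 0.05, COB was higher in both mutants, with arrays wholly above wild type, and PRX52 was lower in spt16-1. PRP39 matched the list of wall structural proteins by its letters alone, being named for a splicing factor, and 0 genes of xyloglucan synthesis and trimming had a matching symbol. Guard cell marker FMA had -0.19 and -0.12 in ssrp1-2 and spt16-1, and trichome marker TRY -0.46 and -0.75, with its spt16-1 arrays wholly below wild type. Neither marker passed, and the part of cell-type shares in the expansin and XTH values was not tested.

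**Figure D5:**
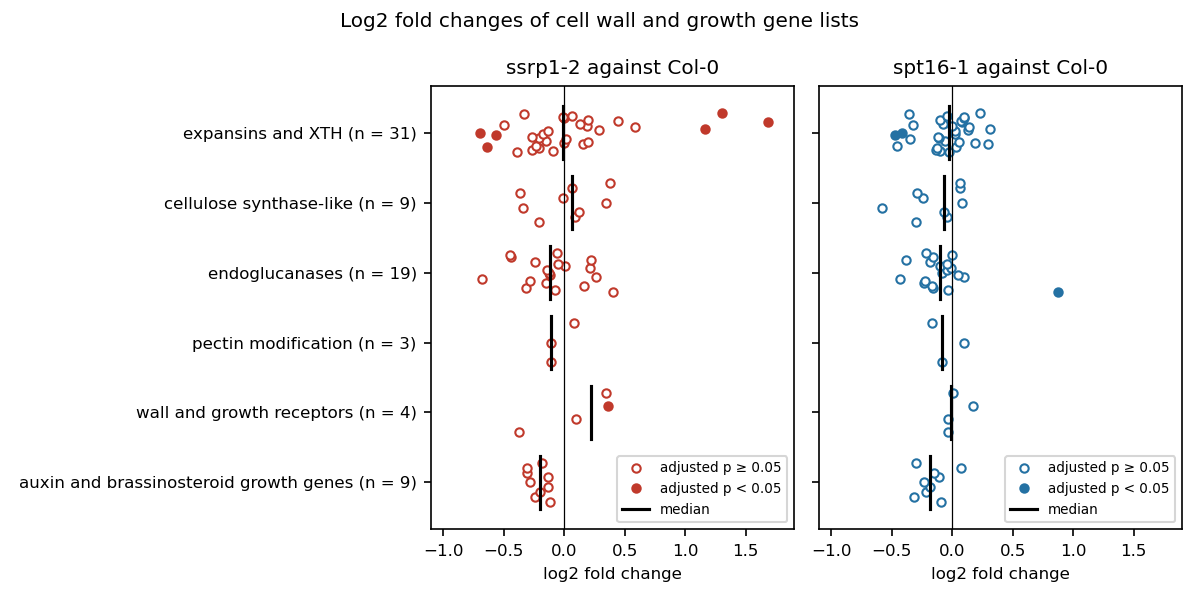
Log2 fold changes against wild type (x axis) of the 31 expansin and XTH genes and of 5 other lists with at least 3 measured genes (y axis), for ssrp1-2 on the left and spt16-1 on the right; points are genes, filled where the adjusted p is under 0.05, and black lines are medians. The expansin and XTH genes hold 6 filled points in ssrp1-2, 3 on each side of 0, FER is the filled receptor in ssrp1-2, and GH9A3 is the filled endoglucanase in spt16-1.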

How the data were processed

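Each array was deposited as a column of log2 values, which the submitters' processing notes credit to RMA, run by the authors in Affymetrix Expression Console 1.3. RMA brings arrays to a common distribution, so a change in total RNA would not show. Genes were named from GEO's platform annotation (16722 probe sets with 1 gene, 759 with several, 11020 unnamed), and all 31 members matched RefSeq TAIR10.1 by gene ID. No sequence or coordinate is given.

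A single moderated linear model (limma 3.58.1, R 4.3.3, two-sided tests) covered the 9 arrays and 28501 probe sets, without further scaling, with 6 residual and 2.76 prior degrees of freedom. Intervals are 95% intervals from the same fit, for single genes. The number of arrays limits the precision. An exact permutation test of 3 against 3 cannot go below p = 0.1 and was not used. The settings tried besides were leaving out each array, fits of 2 genotypes, an unmoderated test, robust moderation, an intensity trend, array weights, a replicate block, 2 scalings, averaged probe sets, a filter on the lowest 25% of mean values and a 2-fold minimum; counting relatives as members was added after seeing the data.

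Members and lists were chosen with earlier results of these data known. Genes described with all arrays are the markers EXLA1, EXPB3, EXPB1, EXPA15, XTH18 and XTH33, members that passed anywhere, and in each subfamily the 2 largest changes per mutant against wild type; of the other lists at most 4 genes, those with the smallest p. Other members named fall outside this rule and were chosen after their values were seen. Over all probe sets, replicate numbers showed no pairing of the arrays. Deviations from the genotype means correlated at -0.135 to 0.0692 over the 9 pairs of arrays with the same number, against -0.112 to 0.0851 over 18 other pairs. This does not settle the question for single genes. With a replicate block the limma adjusted p of XTH18 in ssrp1-2 against wild type was 0.00153, against 0.00739 without it.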

Additional observations from a re-analysis of the deposited data

Results flagged for a closer look

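The difference between the mutants itself passed for 5 genes, ssrp1-2 minus spt16-1 on the log2 scale. EXLA1 differed by 0.85 (95% interval 0.66 to 1.04), with means of 8.12 in ssrp1-2 and 7.27 in spt16-1. XTH33 differed by 1.08 (0.82 to 1.33), with means of 5.77 in ssrp1-2 and 4.70 in spt16-1. XTH18 differed by 1.60 (1.07 to 2.14), the widest interval of the 5, with means of 5.19 in ssrp1-2 and 3.58 in spt16-1. EXPA15 differed by -0.67 (-0.89 to -0.45), with means of 5.52 in ssrp1-2 and 6.19 in spt16-1. EXGT-A3, which is no member by its symbol, differed by 0.53 (0.38 to 0.67), with means of 9.01 in ssrp1-2 and 8.48 in spt16-1, on either side of the wild-type mean of 8.74.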

How the results depend on the processing

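The 3 members higher in ssrp1-2 than in wild type became 2 in the unmoderated test and stayed 3 otherwise. The 3 higher in ssrp1-2 than in spt16-1 became 2 in the unmoderated test, in the fit of 2 genotypes and with a 2-fold minimum. They were 2 to 3 without 1 array, and 4 with relatives counted. The 3 lower in ssrp1-2 became 5 with an intensity trend, 2 in the fit of 2 genotypes and 0 with a 2-fold minimum, and 2 to 3 without 1 array. In spt16-1 against wild type, 0 higher became 1 with an intensity trend, and the 2 lower became 0 with a replicate block, 1 in the unmoderated test, 0 in the fit of 2 genotypes, 0 with a 2-fold minimum and 0 to 1 without 1 array. Those 2 became 3 with the intensity trend, quantile normalization, array weights or the filter on low values. The 1 member lower in ssrp1-2 than in spt16-1 became 0 with the replicate block, 2 with the intensity trend, 0 in the unmoderated test, 0 in the fit of 2 genotypes, 0 with a 2-fold minimum and 0 to 1 without 1 array. Fewer arrays and fewer degrees of freedom enter the fits of 2 genotypes and those without an array. The replicate block and the unmoderated test also leave fewer degrees of freedom. The cause of a changed count was not tested for any setting. None of the 12 called differences changed sign under the settings run. Differences that did not pass could: in spt16-1 against wild type, EXPA15 had -0.08 and XTH18 -0.05 without spt16-1 replicate 3, against 0.03 and 0.08 with all arrays, and XTH18 had -0.08 without wild-type replicate 1. The replicate numbers are not known to mark shared batches. Over all probe sets the block gave 503, 380 and 117 calls in the 3 comparisons, against 735, 576 and 238 without it, and the intensity trend gave 1190, 1024 and 497. Other scalings moved the median of all probe sets by under 0.1. Levels near or below 3.13 limit what can be said of the lowest 5 members and of EXPA7, EXPA18, EXPB2, EXPB4, XTH18 and XTH19. No probe-level data were used to separate near copies.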
